A study of Mus musculus with 6 samples.

Results

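The Akr1c genes encode aldo-keto reductases, and 9 of the 18194 genes named by a single symbol on the array belong to them. Members were taken by name: 12 of 45101 probe sets carry a gene symbol that starts with Akr1c, and 1 of the 12 names a pair of genes, Akr1c12 and Akr1c13, so it is given apart. The family, and above all Akr1c12, Akr1c13 and Akr1c14 within it, was selected on the same difference between SCARKO-jsd and jsd testes that is described here. The group differences of its members are therefore a description, with no test.

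The data come from the testes of mice aged 12 weeks, on 6 arrays: 3 for jsd and 3 for SCARKO-jsd. Both groups carry jsd, a mutation of Utp14b that stops most germ cells from developing past spermatogonia. SCARKO-jsd mice carry a further conditional knockout restricted to Sertoli cells, the somatic cells that nurse the germ line. The design gives 3 mice per genotype. Strain, Cre driver and whether each RNA came from its own animal are not given in the sources used here, so p-values measure the spread between these arrays, which may be partly technical. Values are log2 expression after RMA, which removes background, aims to equalise the distributions of the arrays and reduces each probe set to a single number. The median over all probe sets was 6.40 to 6.41 on every array except SCARKO-jsd 2, where it was 6.26. Each difference is SCARKO-jsd minus jsd, and values of single arrays are given in the order of replicates 1, 2 and 3.

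Aldo-keto reductases are soluble enzymes that use a nicotinamide cofactor to turn ketones and aldehydes into alcohols. In the Akr1c branch many substrates are steroids, and reduction or oxidation at a single carbon of the steroid switches a hormone between its active and inactive form. In the testis such steps act on testosterone, dihydrotestosterone and progesterone that Leydig cells make. Mouse Akr1c genes lie side by side in a cluster and several have nearly the same sequence, which limits what a short probe can tell apart.

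In the RefSeq table (GRCm38.p6) 8 of the 9 genes lie on chromosome 13, in the order Akr1c14, Akr1c18, Akr1c13, Akr1c19, Akr1c12, Akr1c6, Akr1c20 and Akr1c21. Akr1cl, an Akr1c-like gene, lies on chromosome 1. Upstream sequences in RefSeq were matched for 8 members. The 250 bases before the start of Akr1c13 and Akr1c12, the pair whose signals differed between the groups, are shown with those of Akr1c19, which lies between them and whose signal did not separate the groups. Capitals in Akr1c13 and Akr1c12 mark bases that are not identical in the alignment of these windows, leaving aside the overhanging ends. Capitals in Akr1c19 mark a match to TTCNNNGAA, the letters bound by STAT factors.
Akr1c13, chr13:4190937-4191186, plus strand: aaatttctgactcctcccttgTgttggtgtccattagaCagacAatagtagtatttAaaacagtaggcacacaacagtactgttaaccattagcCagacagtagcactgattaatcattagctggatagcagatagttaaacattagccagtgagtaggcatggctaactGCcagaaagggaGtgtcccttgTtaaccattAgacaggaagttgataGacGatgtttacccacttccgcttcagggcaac
Akr1c19, chr13:4233490-4233739, plus strand: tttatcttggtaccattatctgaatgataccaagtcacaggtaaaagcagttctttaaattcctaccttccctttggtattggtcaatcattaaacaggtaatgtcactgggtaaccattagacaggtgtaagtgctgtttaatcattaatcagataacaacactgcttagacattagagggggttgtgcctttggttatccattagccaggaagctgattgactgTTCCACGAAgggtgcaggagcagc
Akr1c12, chr13:4279400-4279649, minus strand: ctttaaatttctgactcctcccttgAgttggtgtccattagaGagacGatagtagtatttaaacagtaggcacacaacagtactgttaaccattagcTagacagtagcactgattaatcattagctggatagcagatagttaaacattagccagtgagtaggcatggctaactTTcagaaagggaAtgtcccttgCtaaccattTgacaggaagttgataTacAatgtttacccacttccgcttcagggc

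The windows of Akr1c12 and Akr1c13 shared 235 of 250 bases (94%), with 11 differing bases and 1 base in a gap. Akr1c19 shared 61.6% of its window with Akr1c13 and 59.6% with Akr1c12. The 25 pairs that hold at most 1 of these 3 genes shared between 50.4% and 58.8%. Both Akr1c12 and Akr1c13 thus have a start region that is almost a copy of the other, although they lie on opposite strands and have Akr1c19 between them. Of 3 motifs searched on both strands, AGAACA (a half-site of steroid receptors) matched 0 of the 8 family windows and 16.1% of 32851 RefSeq windows of that length. TTCNNNGAA matched Akr1c19 alone among the 8, and 7.02% of all windows. TGACNNNGC, the core of the antioxidant response element, matched Akr1cl alone among the 8, and 10.2% of all windows. A match here is a match of letters and not a measured site.

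Akr1c12 and Akr1c13 were the members with higher signal in SCARKO-jsd testes, and for the other 7 genes of the family the 95% interval of the difference included 0. Akr1c12 and Akr1c13 encode closely related reductases known from stomach and from bone marrow cells. On its own probe set, Akr1c12 had a log2 expression of 7.25, 7.06 and 7.40 on the jsd arrays, against 9.50, 9.60 and 9.24 on the SCARKO-jsd arrays. All SCARKO-jsd arrays thus stood at least 1 log2 unit above all jsd arrays, with no overlap. The group means were 7.24 ± 0.17 and 9.45 ± 0.19 (SD, n = 3), a difference of 2.21 ± 0.13 (SE) on the log2 scale, or 4.62-fold, with a 95% interval of 3.69 to 5.78.

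Akr1c13 showed the same picture. Its probe set gave 8.97, 8.83 and 9.06 on the jsd arrays, against 10.88, 10.69 and 10.76 on the SCARKO-jsd arrays (log2 expression). Again no jsd array reached any SCARKO-jsd array, and the arrays within a group lay within 0.23 of each other. The difference was 1.82 ± 0.098 log2 units (SE, n = 3), or 3.53-fold (95% interval 3.00 to 4.16).

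A probe set designed to detect both genes gave 9.37, 9.23 and 9.34 on the jsd arrays, against 11.32, 11.05 and 11.17 on the SCARKO-jsd arrays (log2 expression). Its difference of 1.87 ± 0.099 (SE), or 3.65-fold (95% interval 3.09 to 4.31), lay between those of the gene-specific probe sets. The 3 intervals overlap, but all probe sets were read on the same arrays, so overlap does not compare the changes. Whether Akr1c12 changed more than Akr1c13 was not tested. Since the genes are near-identical, probes of either can pick up RNA of the other, and the data do not settle whether 1 or both of them differed. Whole testes were measured, so more cells that express these genes and more RNA per cell cannot be told apart.

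**Figure D1:**
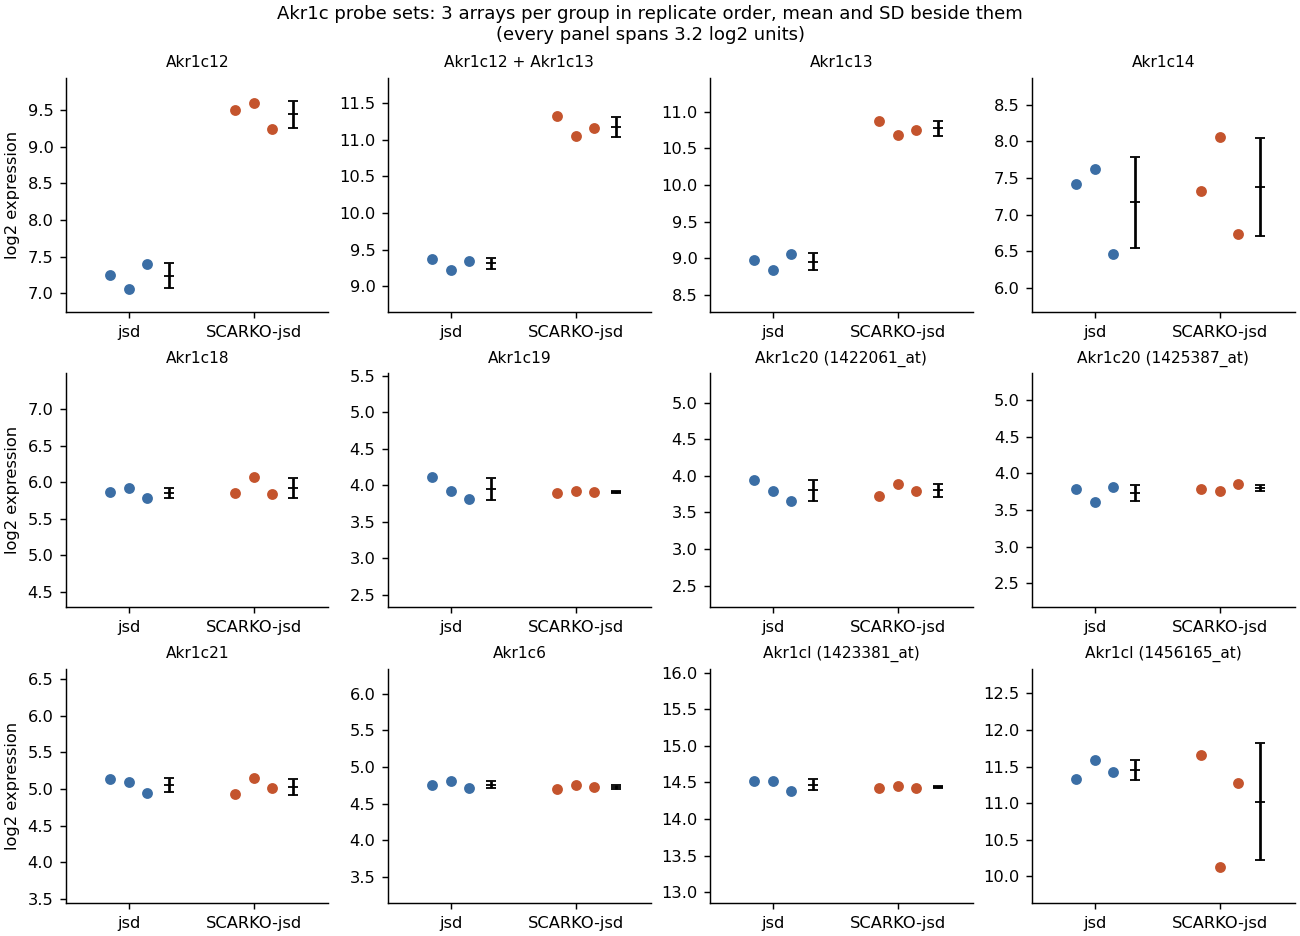
Log2 expression of each of the 12 Akr1c probe sets on the 3 jsd arrays (blue) and the 3 SCARKO-jsd arrays (orange), in replicate order, with the mean and SD beside them. Every panel spans the same range of log2 units. In the panels of Akr1c12, Akr1c13 and their shared probe set the orange points lie above all blue points, while Akr1c14 spreads widely in both groups.

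Akr1c14 encodes a 3-alpha-hydroxysteroid dehydrogenase, which converts dihydrotestosterone into a weak metabolite and acts on reduced progesterone. It was the most variable of the tested members. Its log2 expression was 7.42, 7.62 and 6.46 on the jsd arrays, against 7.32, 8.07 and 6.73 on the SCARKO-jsd arrays. The groups overlapped in most of their range: jsd 3 and SCARKO-jsd 3 were low, and SCARKO-jsd 2 was the highest of the 6. The difference was 0.21 ± 0.42 (SE), with a 95% interval from -0.81 to 1.22, which includes a 2-fold higher level as well as no change. Without SCARKO-jsd 2 the difference was -0.14.

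Whether the spread within groups entered the choice of the members is not known here, so its ranks are a description. For Akr1c14 the pooled within-group SD was 0.65 log2 units, and 109 of the 10916 genes tested (0.999%) had a larger one, against a median of 0.14 over all genes. Akr1c12 had a within-group SD of 0.18, exceeded by 3491 genes, and Akr1c13 one of 0.11, exceeded by 69.5%. The brighter probe set of Akr1cl had an SD of 0.058, exceeded by 93.2% of genes, on a signal near the top of the range. The dimmer probe set of Akr1cl had group SDs of 0.14 and 0.80.

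Akr1cl gave a very bright signal in every testis. Its brighter probe set read 14.52, 14.52 and 14.38 on the jsd arrays, against 14.42, 14.46 and 14.43 on the SCARKO-jsd arrays (log2 expression). Its mean was higher than that of 99.98% of all probe sets on the array, and the difference between the groups was -0.034 ± 0.080 (SE). Signals near the top of the range can be compressed, so a change at this level is hard to see on this probe set.

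The second probe set of Akr1cl lay lower, at 11.32, 11.60 and 11.43 on the jsd arrays, against 11.66, 10.12 and 11.28 on the SCARKO-jsd arrays (log2 expression). SCARKO-jsd 2 alone was low, by more than 1 log2 unit against every other array. The difference was -0.43 ± 0.38 (SE) with all arrays and 0.022 without SCARKO-jsd 2. That array also had the largest gap between the 3' and 5' probe sets of beta-actin, 1.66 log2 units against 0.70 to 0.98 in the other 5, a measure of RNA integrity, and the part of this in the values of Akr1cl or Akr1c14 was not tested. Akr1c12, Akr1c13 and their shared probe set differed by 2.13, 1.86 and 1.93 log2 units without SCARKO-jsd 2.

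The remaining members were dim. The limit used for dim genes was a mean log2 expression of 6.64, the lowest 40% of genes. Akr1c14 was the member just above it, with a mean of 7.27, and Akr1c18 the member just below it, with a mean of 5.89. Akr1c18 encodes a 20-alpha-hydroxysteroid dehydrogenase that inactivates progesterone. It read 5.87, 5.92 and 5.78 on the jsd arrays, against 5.85, 6.08 and 5.84 on the SCARKO-jsd arrays, with a difference of 0.066 ± 0.099 (SE).

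Akr1c6, a 17-beta-hydroxysteroid dehydrogenase of the liver, lay between 4.70 and 4.80 on all 6 arrays, with a difference of -0.029 ± 0.075 (SE). Akr1c21, which acts on the 17-alpha position of androgens, lay between 4.94 and 5.15 (-0.024 ± 0.097). Akr1c19, between the differing genes on the chromosome, lay between 3.81 and 4.12 (-0.045 ± 0.099). The probe sets of Akr1c20 lay between 3.61 and 3.94 and gave differences of -0.00067 ± 0.10 and 0.068 ± 0.089. For these 4 genes and Akr1c18 the 95% intervals of the difference stayed within -0.28 to 0.30 log2 units, on signals too dim to say whether the genes are expressed at all.

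**Figure D2:**
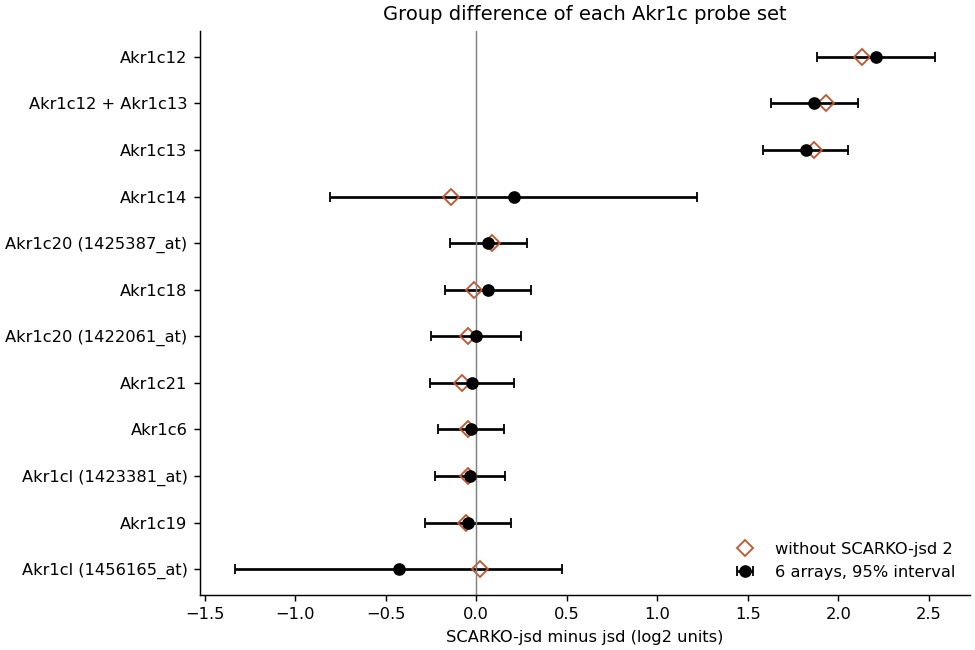
Difference between SCARKO-jsd and jsd (log2 units) for each of the 12 Akr1c probe sets, with its 95% interval from limma (black), and the same difference without SCARKO-jsd 2 (open orange diamonds). Akr1c12, Akr1c13 and their shared probe set lie between 1.82 and 2.21, and the other 9 probe sets have intervals that include 0.

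Of the 4 members bright enough to enter the fit over genes, 2 (Akr1c12 and Akr1c13) passed limma's threshold, a Benjamini-Hochberg adjusted p under 0.05, where 3.57% of the 10916 genes did so. They were among the 1.78% of genes higher in SCARKO-jsd testes, and no member was among the 1.80% that were lower. Their arrays did not overlap between the groups, as for 24.6% of all genes. Because this contrast chose the family, nothing is read from these counts. By size of the difference, 8 of the genes tested were higher by more than Akr1c12 and 14 by more than Akr1c13, while the median difference over all genes was 0.043.

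Genes outside the family were ranked by their likeness to members across the 6 arrays. The 5 genes most like Akr1c12 by Pearson correlation over the 6 arrays were B3galnt1 (r = 0.999), which adds a sugar to glycolipids, the mitochondrial malic enzyme gene Me2 (0.997), Casq2 (0.996), Shisal1 (0.996) and Vnn1 (0.996), which makes pantothenic acid. Those most like Akr1c13 were Limch1 (0.997), Rai1 (0.996), Cmtm7 (0.996), Stard3 (0.995) and the ATP-gated channel gene P2rx7 (0.994). Such correlations are high for any gene with a clear step between the groups, so they rank likeness and carry no test. Of these genes, B3galnt1 came closest to Akr1c12 in size: it read 7.56, 7.48 and 7.71 on the jsd arrays, against 9.21, 9.34 and 9.03 on the SCARKO-jsd arrays (log2 expression). Akr1c12 and Akr1c13 had r = 0.993 with each other over the 6 arrays.

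The genes most like Akr1c14 by the same correlation had no step between the groups. They were Itfg1 (r = 0.984), Pdlim2 (0.983), the zinc finger genes Zfand5 (0.979) and Zfp207 (0.979), and Cachd1 (0.975). These values are the highest picked from many genes over only 6 arrays, and unrelated genes can reach high values in such a search. Whether they exceed what unrelated genes would give was not tested, so they too only rank likeness. Itfg1 read 10.30, 10.36 and 10.02 on the jsd arrays, against 10.28, 10.56 and 10.01 on the SCARKO-jsd arrays (log2 expression), low in jsd 3 and SCARKO-jsd 3 and high in SCARKO-jsd 2 as Akr1c14 was. Its range was a fraction of that of Akr1c14. The correlation of Akr1c14 with Akr1c12 was 0.20 and that with Akr1c13 was 0.13.

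Next to the cluster on chromosome 13, a single gene passed the test. The 19 measured neighbours, 9 before the cluster and 10 after it, held 12 that were bright enough to test. Of these, 1 rose (limma, adjusted p under 0.05), 0 fell and 11 did not pass, with a median difference of 0.13, where 1.78% of all genes rose. The gene that rose was Pitrm1, a mitochondrial peptidase. It read 10.03, 9.93 and 9.68 on the jsd arrays, against 10.58, 10.92 and 10.47 on the SCARKO-jsd arrays (log2 expression), higher by 0.78 ± 0.15 (SE, limma, Benjamini-Hochberg adjusted p = 0.0327). The call held without SCARKO-jsd 2 (adjusted p = 0.0169) and ended without any other array (up to 0.113) and with every probe set tested by itself (0.136).

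Akr1e1, a reductase of another aldo-keto branch and the first gene after the cluster, was higher by 0.80 ± 0.31 (SE) and did not pass (limma, Benjamini-Hochberg adjusted p = 0.232). It read 8.39, 7.56 and 7.06 on the jsd arrays, against 8.28, 8.80 and 8.34 on the SCARKO-jsd arrays (log2 expression), and jsd 1 overlapped the SCARKO-jsd arrays. Its difference was 1.16 without jsd 1, 0.50 without jsd 3 and 0.57 as the mean of its probe sets, and did not pass in any of these. On the other side the nearest measured gene, Ucn3, was dim, and Net1, the nearest one tested, had a difference of -0.45 ± 0.18 (adjusted p = 0.238). Within the cluster, Akr1c18, Akr1c19 and Akr1c6, the members next to Akr1c13 and Akr1c12, were all too dim to test.

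**Figure D3:**
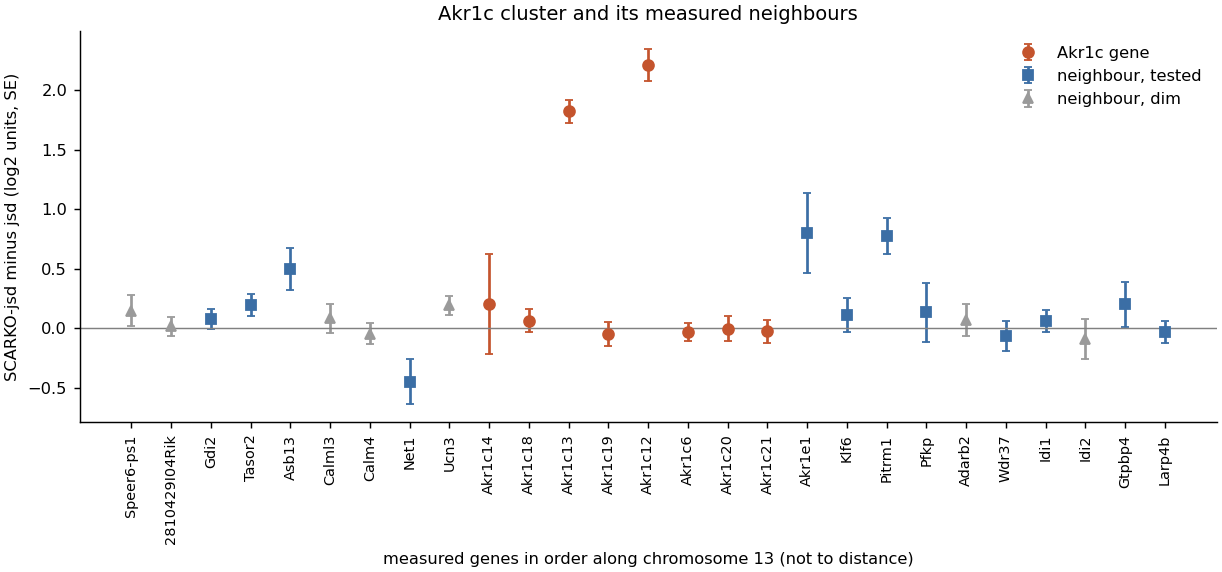
Difference between SCARKO-jsd and jsd (log2 units, bars SE) for the 8 Akr1c genes of chromosome 13 (orange circles), the tested neighbours (blue squares) and neighbours too dim to test (grey triangles), in their order along the chromosome and not to distance. Akr1c13 and Akr1c12 stand at 1.82 and 2.21, and Akr1e1 and Pitrm1, after the cluster, at 0.80 and 0.78.

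Among genes of related enzymes and of steroid, prostaglandin, NADPH and Nrf2 pathways, a small number passed the test. Over these 8 lists, 101 of 136 genes were tested, 4 rose, 0 fell and 97 did not pass, with a median difference of 0.072. The share that passed was close to the 3.57% of all genes. At an unadjusted p under 0.05 (limma) there were 23, where 18.0% of all genes tested stood below it. By list they ranged from 0 of 14 hydroxysteroid dehydrogenases and steroid reductases to 9 of 20 Nrf2 targets. The 4 that rose were Aldh18a1, an enzyme of proline synthesis (0.81 ± 0.16 SE, limma, Benjamini-Hochberg adjusted p = 0.0417), Aldh3b1, an aldehyde dehydrogenase (0.59 ± 0.10, 0.0276), Stard3, which moves cholesterol in late endosomes (0.58 ± 0.086, 0.0141), and Me2 (0.55 ± 0.084, 0.0166). The number that passed went to 0 without jsd 1, jsd 2 or SCARKO-jsd 3, to 2 without jsd 3 and to 7 without SCARKO-jsd 2. With every probe set tested by itself none of the 4 passed (adjusted p = 0.163, 0.109, 0.0637 and 0.0680 in the same order).

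Among the other aldo-keto reductases 0 of 5 tested passed, with a median difference of 0.027. Akr1a1, the general aldehyde reductase, differed by 0.066 ± 0.084 (SE), and Akr7a5 by -0.054 ± 0.091. Among 14 hydroxysteroid dehydrogenases and steroid reductases 0 passed, with a median of 0.075. Hsd17b3, the Leydig cell enzyme that makes testosterone, read 12.32, 12.71 and 12.65 on the jsd arrays, against 12.89, 12.68 and 12.86 on the SCARKO-jsd arrays, overlapping between the groups (0.25 ± 0.13, limma, adjusted p = 0.350). Hsd3b7, of bile acid synthesis, differed by 0.19 ± 0.085 and Hsd17b11, a lipid droplet enzyme, by -0.13 ± 0.085 (adjusted p = 0.308 and 0.479), the latter by 0.030 as the mean of its probe sets.

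Carbonyl and quinone reductases, which share substrates with the Akr1c enzymes, had the highest list median, 0.23, with 14 of 15 tested genes above 0 and 0 past the threshold. Over all genes 59.8% were above 0. At an unadjusted p under 0.05 (limma) there were 7 of 15, against 18.0% of all genes tested. The nearest to the threshold was Dhrs11, a short-chain reductase of steroids, at 0.41 ± 0.090 (SE, limma, Benjamini-Hochberg adjusted p = 0.0546), which passed without SCARKO-jsd 2 (0.0455), with a filter on the lowest 60% of genes (0.0424), with a trended and robust variance (0.0429) and with arrayWeights (0.0283), and not under the other alternatives (up to 0.226). Nqo2 (0.33 ± 0.10) and Dhrs7 (0.26 ± 0.080) had adjusted p values of 0.143 and 0.144, and Dhrs7 differed by 0.033 as the mean of its probe sets. Without SCARKO-jsd 2 the list median was 0.17.

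Of 18 aldehyde dehydrogenases, 2 rose (Aldh3b1 and Aldh18a1), with a median of 0.096. Aldh3a1 differed by 0.38 ± 0.16 (SE) and did not pass (limma, Benjamini-Hochberg adjusted p = 0.277). Of 15 genes listed for the supply of NADPH, the cofactor of these reductases, Me2 rose. Mthfd2, of the folate cycle, had a difference of -0.51 ± 0.12 (limma, adjusted p = 0.0727). Whether Me2 or Mthfd2 supplies NADPH to the Akr1c enzymes was not tested. H6pd, which makes NADPH in the endoplasmic reticulum, differed by 0.25 ± 0.10 (0.246). The median of this list was 0.058. Without SCARKO-jsd 2 the medians were 0.0073 for the aldehyde dehydrogenases and -0.0035 for the NADPH list, and Mthfd2 passed (-0.39, adjusted p = 0.0471). Mthfd2 also passed as the mean of its probe sets (-0.44, limma, adjusted p = 0.0374), and not under the other alternatives (up to 0.268).

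Of 20 targets of Nrf2, the factor that raises detoxifying enzymes under oxidative stress, 0 passed, with a median of 0.039. At an unadjusted p under 0.05 (limma) there were 9 of 20, against 18.0% of all genes tested, and 12 of 20 were above 0. Txnrd1, thioredoxin reductase, differed by 0.38 ± 0.11 (SE), Blvrb by 0.29 ± 0.092 and the carbonyl reductase gene Cbr3 by 0.58 ± 0.19 (limma, Benjamini-Hochberg adjusted p = 0.120, 0.158 and 0.162). As the mean of its probe sets Txnrd1 differed by -0.014. Of 9 prostaglandin genes 0 passed, with a median of 0.073, and Slco2a1 and Tbxas1 differed by 0.54 and 0.15. Pla2g4a, which frees arachidonic acid, differed by -0.32 (adjusted p = 0.306) and by -0.48 without SCARKO-jsd 2, where it passed (0.0253). It also passed with arrayWeights (-0.43, limma, adjusted p = 0.0433), and not under the other alternatives (up to 0.618). Of 11 genes of steroid synthesis from cholesterol Stard3 rose, and the mitochondrial electron carrier Fdx1 differed by 0.10 ± 0.091. The median of that list was 0.05.

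**Figure D4:**
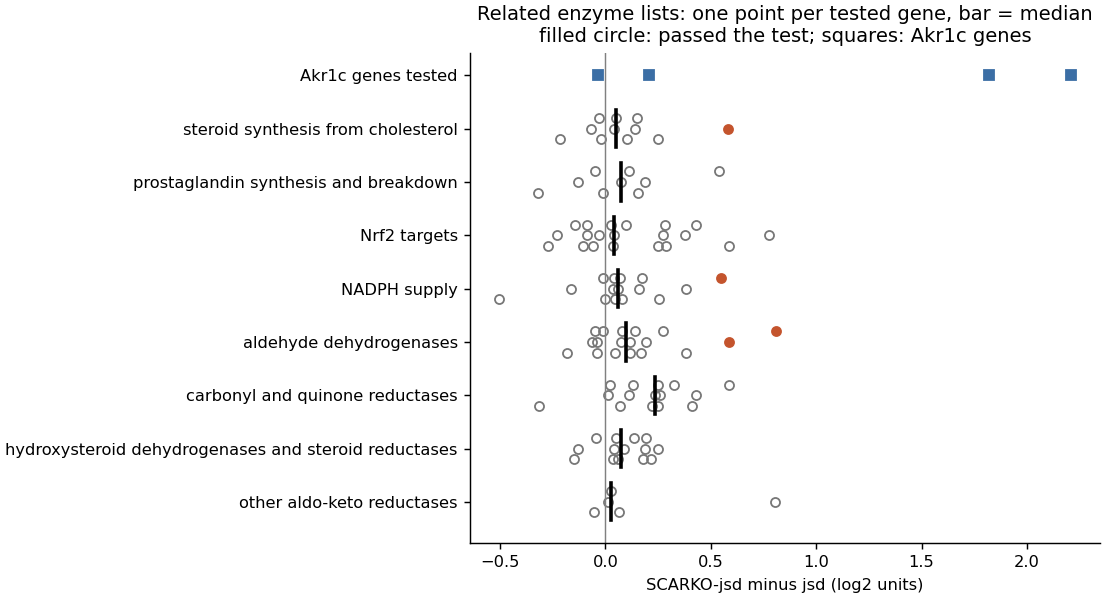
Difference between SCARKO-jsd and jsd (log2 units) of every tested gene in the 8 lists of related genes, as circles. Filled circles had an adjusted p under 0.05 in limma. Bars mark the median of each list and squares the 4 tested Akr1c genes. The list medians lie between 0.027 and 0.23, while Akr1c13 and Akr1c12 lie at 1.82 and 2.21.

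Markers of the cells in the samples set the frame for these values. Rhox5, a homeobox gene of Sertoli cells, was 9.74 to 10.43 in jsd and 5.44 to 6.11 in SCARKO-jsd arrays, which separates the groups as labelled. Leydig cell markers, those of the main source of steroid enzymes, did not separate the groups: 0 of 9 tested passed, with a median of 0.034, and their summed log2 level was 16.54 to 16.63 in jsd and 16.50 to 16.67 in SCARKO-jsd arrays. Among peritubular myoid markers 0 of 8 and among macrophage markers 0 of 12 passed. Of 7 endothelial markers 1 fell and 6 were above 0, with a median of 0.18 (0.0038 without SCARKO-jsd 2). Of 14 Sertoli cell markers, Rhox5 included, 1 rose and 2 fell, and Rhox5 was 1 of those that fell. The median of this list was -0.055 (-0.15 without SCARKO-jsd 2). Some germ cell markers differed: of 4 tested meiotic markers 2 rose, with a median of 0.92. The summed log2 level of all 15 was 9.84 to 10.13 in jsd and 10.52 to 10.74 in SCARKO-jsd arrays. Of 13 spermatogonial markers 3 rose, 1 fell and 9 did not pass, and their summed level overlapped between the groups (12.96 to 13.22 and 13.15 to 13.41). Their median difference was 0.68, with 8 of 13 above 0. At an unadjusted p under 0.05 (limma) there were 10 of 13, against 18.0% of all genes tested. Without SCARKO-jsd 2, 5 spermatogonial markers rose, 2 fell and 3 meiotic markers rose, with list medians of 0.49 and 0.79. The other 11 meiotic and later markers, among them Tnp1, Prm2 and Acrv1, were dim. Of the epididymal list 10 of 11 measured genes were dim and the other, Ces5a, differed by -0.011, while of the liver list Ahsg rose and 9 of 11 were dim. Of the red blood cell list the 1 tested gene, Alas2, which starts heme synthesis, fell by 1.21 (limma, adjusted p = 0.00156). The summed level of the list was 9.06 to 9.19 in jsd and 8.08 to 8.27 in SCARKO-jsd arrays. The other 3 measured genes of the list were dim, so this sum is not independent of Alas2. Of the adrenal cortex list 0 of 2 tested passed, with summed levels of 10.69 to 11.34 and 11.29 to 11.59. The part of any of these cells in the signal of Akr1c12 and Akr1c13 was not tested. SCARKO-jsd 2 also stood apart in its correlation with the other arrays, 0.991 at best, where each of the other 5 reached at least 0.996 with another array.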

How the data were processed

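Total RNA of testes was extracted on RNeasy columns and hybridised as biotinylated cRNA to Affymetrix arrays, per the labels' protocols. The authors deposited log2 expression for each probe set. RMA and affy are named in the submitters' processing notes; versions and genome build are not given in the sources used here. Platform annotation named 1 gene for 34958 of 45101 probe sets and several for 932. All 9 Akr1c gene IDs matched RefSeq, whose coordinates serve only for gene order and the sequences shown.

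Each gene was represented by its brightest probe set, genes in the lowest 40% of mean level were left out (10916 stayed), and limma 3.58.1 in R 4.3.3 tested genotype, two-sided, with Benjamini-Hochberg adjustment at 0.05. SEs and 95% intervals of Akr1c probe sets come from the same model over every probe set. The fit was tested on simulated data. Members and lists were chosen with earlier results of these data known. Named are all Akr1c genes, called list genes and up to 3 of smallest p per list, called and nearest neighbours, and the 5 genes most correlated with each of 3 members. Genes on 2 lists count once in totals. Promoter windows were aligned with Biopython 1.88. The gene targeted by the conditional knockout is not reported here. Precision is limited by having 3 arrays a group, and 0 array pairs held identical values. Alternatives were other filters, probe set summaries, normalizations, variance models, a replicate block, and each array left out.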

Additional observations from a re-analysis of the deposited data

How the results depend on the processing

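The differences of Akr1c12, Akr1c13 and their shared probe set kept their sign and moved by less than the spread between arrays under every alternative. They were 2.12 to 2.31 over 15 alternatives for Akr1c12 and 1.76 to 1.89 over 15 for Akr1c13. The shared probe set gave 1.80 to 1.93 over 11. Filters, probe set summaries, the trended and robust variance and the replicate block could not change these differences. Those alternatives are therefore no evidence of stability, and the rest describe members chosen on this contrast. Akr1c14 had no stable direction, with -0.30 to 0.53 over 14. The count of 390 genes that passed went to 126 with every probe set by itself and 860 with arrayWeights (whose iteration stopped before convergence), and lay between 78 and 768 with 1 array left out. Of the related genes, 4 passed, 2 with median centring, and 0 to 7 with 1 array left out. Of the neighbours, 1 passed and 0 to 1 did so with 1 array left out. Aldh18a1 did not pass as the mean of its probe sets (adjusted p = 0.0978). Median centring put 57.0% of called genes higher in SCARKO-jsd against 49.7%, where it was 39.1% without SCARKO-jsd 2, 62.8% without SCARKO-jsd 1 and 41.7% with the 60% filter, so the balance of direction turned with a single array. Median centring moved the median of all genes from 0.043 to 0.087. The labels give no pairing of same-numbered arrays, and the main fit used none. Deviations of same-numbered arrays correlated at -0.21, 0.23 and 0.24, and those of differently numbered arrays at -0.39 to 0.35. With so few arrays these values cannot exclude a pairing. With a replicate block 397 genes passed, and Cbr3 passed (0.58, limma, adjusted p = 0.0331, against 0.0725 to 0.438 under the other alternatives). With 3 arrays per group, differences of Akr1c14 under about 1 log2 unit cannot be resolved, and dim probe sets give no evidence of change in either direction.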
